A study of Rattus norvegicus with 8 samples.

Results

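The cluster of miR-322, miR-503, miR-351, miR-542, miR-450b and miR-450a is a run of 6 miRNA hairpins on the rat X chromosome. Its levels were followed in bone taken from around titanium implants in hyperlipidemic and normal rats. The members were chosen by name alone: every row of the deposited table that carries 1 of these 6 names with the prefix rno-, with any suffix for copy or arm, such as rno-miR-322-5p. The cluster was picked with its levels in these 2 groups already known, so the differences between the diets describe these libraries and are no independent support. The rule found 12 of the 974 rows of the table, or 12 of its 604 rows of catalogued rat miRNAs, with both arms of all 6 hairpins present. The hyperlipidemic group comprised 4 libraries from male Wistar rats on a high-fat diet for 8 weeks. The normal group comprised 4 libraries from male Wistar rats on a normal diet for the same time. The labels give the rats an age of 12 to 13 weeks, and all of them carried a root-form implant in each femoral shaft. Samples were cut 10 days after implantation and reached 1 mm beyond the metal. The labels do not say whether libraries of a group came from separate rats, so p-values measure the spread between these libraries, which may be technical.

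Clustered miRNAs are commonly cut from a shared primary transcript, and each hairpin yields a 5p and a 3p strand, of which usually 1 is loaded and kept. MiR-322 is the rodent counterpart of human miR-424, and with miR-503 it slows the cell cycle and favours muscle differentiation. In human monocytes miR-503-5p restrains osteoclast formation by targeting RANK. MiR-542-3p restrains mouse osteoblast differentiation by targeting BMP-7, and miR-450a-5p promotes adipocyte differentiation in rat. MiR-351-5p has the seed of the miR-125 family, and miR-322-5p that of the miR-15/16 family.

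In the RefSeq annotation of the assembly GRCr8 the hairpins all lie on the minus strand of the X chromosome, in the 5′ to 3′ order Mir322, Mir503, Mir351, Mir542, Mir450b-1 and Mir450a1. No other miRNA gene lies among these 6. The protein-coding neighbours are Plac1 on the Mir322 side and Hprt1 on the Mir450a1 side. The annotated lncRNA LOC102550366 spans Mir322, Mir503 and Mir351 and stops short of the other 3. All 12 mature sequences were found in RefSeq (GRCr8) and are shown in that order with the seed, bases 2 to 8, in capitals, because the members are grouped by seed and arm in what follows.
rno-miR-322-5p: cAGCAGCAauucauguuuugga
rno-miR-322-3p: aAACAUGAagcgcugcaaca
rno-miR-503-5p: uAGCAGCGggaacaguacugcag
rno-miR-503-3p: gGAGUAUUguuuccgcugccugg
rno-miR-351-5p: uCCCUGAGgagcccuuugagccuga
rno-miR-351-3p: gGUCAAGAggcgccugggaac
rno-miR-542-5p: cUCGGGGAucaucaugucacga
rno-miR-542-3p: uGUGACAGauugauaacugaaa
rno-miR-450b-5p: uUUUGCGAuguguuccuaaua
rno-miR-450b-3p: aUUGGGGAcgcuucgcauuca
rno-miR-450a-5p: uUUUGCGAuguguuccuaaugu
rno-miR-450a-3p: uAUUGGGAacauuuugcauaa

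The 12 members carry 11 seeds. Only rno-miR-450a-5p and rno-miR-450b-5p share one, and these are alike over their first 20 bases. A read that ends within those 20 bases matches either, and the rule by which the authors assigned such reads is not stated, so the levels of these 2 are uncertain against each other. The arms of miR-542 and miR-450b are unlike in base content. G and C make up 31.8% of miR-542-3p and 54.5% of miR-542-5p, and 33.3% of miR-450b-5p and 52.4% of miR-450b-3p. The share is highest in miR-351, at 60% of its 5p and 66.7% of its 3p arm. Any part of base content in the results was not tested. The hairpins of miR-542 and miR-450b are shown because their arms differed most between the diets in what follows. Capitals mark the mature arms, 5p first.
Mir542: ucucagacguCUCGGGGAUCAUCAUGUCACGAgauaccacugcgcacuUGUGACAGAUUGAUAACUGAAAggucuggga
Mir450b-1: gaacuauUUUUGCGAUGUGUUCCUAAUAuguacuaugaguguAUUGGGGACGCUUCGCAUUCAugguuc

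Values are in RPM, reads per 1000000 on a scale of the catalogued (rno-) rows alone. That scale rested on 2643501 to 4809893 reads in hyperlipidemic libraries and on 990804 to 1748974 in normal libraries. The cluster itself held 6434 to 17191 reads in hyperlipidemic and 7577 to 13524 reads in normal libraries. Values are relative, so other abundant miRNAs bear on them. Red-cell markers (miR-144, miR-451 and miR-486) summed to 19.2% to 33.1% of the rno- signal in hyperlipidemic libraries, against 7.77% to 20.2% in normal libraries. Of the 4 strands of this list none passed, and 2 had log2 folds above 0. The sum was led by miR-144-3p, at 149865 RPM on average in hyperlipidemic and 60314 RPM in normal libraries (log2 fold 1.52, SE 0.48), while miR-144-5p and miR-486 each had a log2 fold of -0.14. Myeloid markers (miR-223 and miR-142) summed to 14.8% to 19.96% in hyperlipidemic and 6.08% to 20.2% in normal libraries, and striated muscle markers to at most 0.473% in any library. In normal replicates 3 and 4 both the red-cell markers (8.95% and 7.77%) and the myeloid markers (9.34% and 6.08%) were lower than in the other 6. These 2 libraries stand apart in several of the results on the cluster, which are therefore also given without them. Less of a miRNA in bulk bone can come from fewer cells of a type or from less of it per cell, and these cannot be told apart here.

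The cluster was a moderate part of the signal, and it was led by its downstream end. Its summed level was 3732 ± 1267 RPM in hyperlipidemic libraries and 6942 ± 1489 RPM in normal libraries (SD over n = 4 each), or, as a share of all rno- rows, 0.418% ± 0.146 with the high-fat and 0.794% ± 0.180 with the normal diet. The hyperlipidemic sums ran from 2434 to 5150 RPM and the normal sums from 5438 to 8678 RPM, without overlap. By mean over all 8 libraries miR-450b-5p had rank 72, miR-450a-5p rank 77, miR-322-5p rank 88, miR-542-3p rank 95, miR-351-5p rank 102 and miR-322-3p rank 112 among the 604 rno- miRNAs. MiR-503-5p followed at rank 173 and miR-542-5p at rank 222. MiR-450b-3p had rank 279, miR-450a-3p rank 298, miR-503-3p rank 310 and miR-351-3p, the lowest, rank 370. Ranks compare shares of reads.

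**Figure D1:**
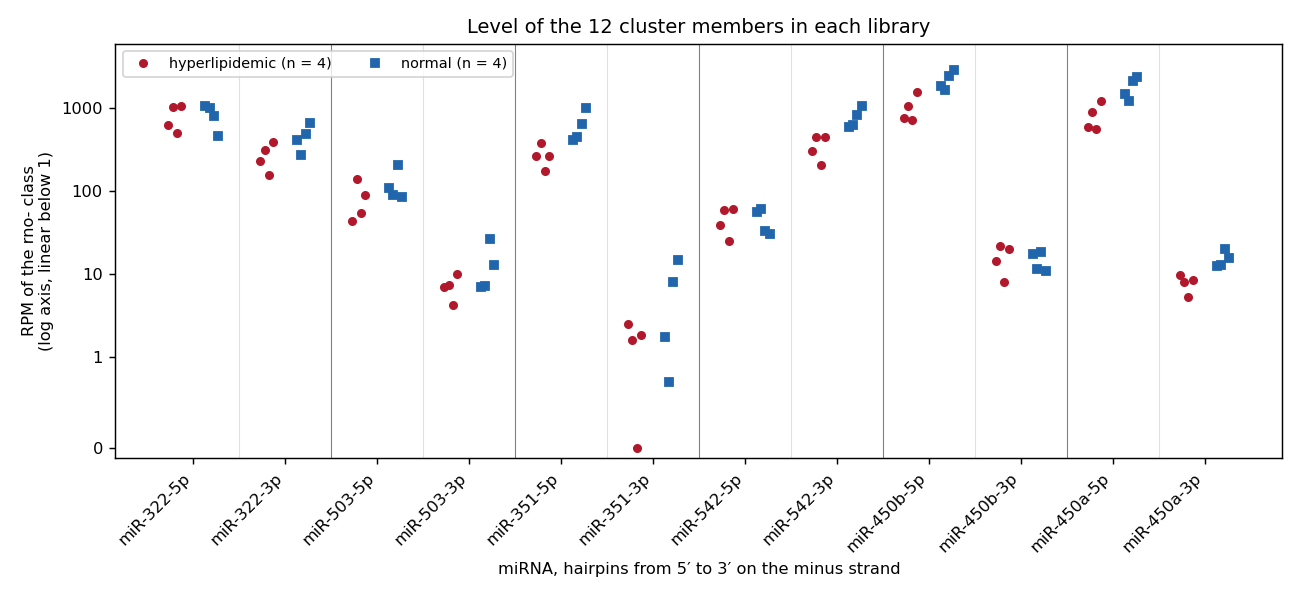
Level of each of the 12 members in RPM of the rno- class (log axis, linear below 1) in 4 hyperlipidemic (red circles, left) and 4 normal (blue squares, right) libraries, drawn from replicate 1 to replicate 4 within a group. The hyperlipidemic circles of miR-351-5p, miR-542-3p, miR-450b-5p, miR-450a-5p and miR-450a-3p all lie below the normal squares, while those of miR-322-5p, miR-542-5p and miR-450b-3p share their range.

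The comparison of diets asks how the miRNAs of bone at an implant differ in hyperlipidemic rats. No member of the cluster passed the threshold, an adjusted p under 0.05 in a limma fit over the 696 miRNAs tested. Of these, 5 passed (0.718%), all of them predicted miRNAs, and no rno- miRNA passed. In predicted rows 1 read was worth 6.94 to 16.6 RPM, far above the pseudocount of 0.475 RPM. Single reads thus weigh heavily in the folds of those rows, which are a poor yardstick for the members. In 11 of the 12 members the log2 fold was below 0, as it was in 245 of the 396 rno- miRNAs tested. Among the 11, miR-322-5p was at -0.05 and miR-542-5p at -0.0043. The median over the 12 was -0.85, against -0.20 over the 396 rno- miRNAs tested and -0.10 over all 696. In 5 members every hyperlipidemic library was below every normal one, and 10.6% of rno- miRNAs tested had that pattern. The same 5 had an unadjusted p under 0.05 and a lower level, which 12.6% of rno- miRNAs tested had. All 12 members passed the filter on low values.

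The most abundant of these 5 were the miR-450 5p strands. The level of miR-450b-5p was 775, 1077, 733 and 1568 RPM in hyperlipidemic libraries, against 1855, 1676, 2427 and 2869 RPM in normal libraries. Its highest hyperlipidemic value was thus below its lowest normal one (log2 fold -1.12, SE 0.30, limma adjusted p = 0.112). MiR-450a-5p, whose reads are partly exchangeable with those of miR-450b-5p, stood at 603, 909, 561 and 1218 RPM in hyperlipidemic libraries, against 1472, 1227, 2136 and 2418 RPM in normal libraries. Here the groups were only just apart (log2 fold -1.16, SE 0.33, limma adjusted p = 0.122). The scarce opposite strand, miR-450a-3p, lay at 9.56, 7.93, 5.3 and 8.39 RPM in hyperlipidemic libraries, against 12.6, 12.9, 20.2 and 15.4 RPM in normal libraries (log2 fold -0.93, SE 0.40, limma adjusted p = 0.259). It rested on 113 reads in hyperlipidemic and 84 in normal libraries.

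MiR-542-3p and miR-351-5p lay lower by a similar amount. MiR-542-3p, the strand with a described role in osteoblasts, was at 309, 455, 207 and 450 RPM in hyperlipidemic libraries, against 597, 633, 823 and 1070 RPM in normal libraries (log2 fold -1.17, SE 0.33, limma adjusted p = 0.115). MiR-351-5p was at 269, 383, 174 and 269 RPM in hyperlipidemic libraries, against 411, 448, 641 and 1016 RPM in normal libraries (log2 fold -1.16, SE 0.36, limma adjusted p = 0.153). Normal replicate 4 was the highest library for both and for both miR-450 5p strands, and hyperlipidemic replicate 3 the lowest. Without normal replicates 3 and 4 the log2 folds of miR-450b-5p, miR-450a-5p, miR-542-3p and miR-351-5p were -0.83, -0.78, -0.86 and -0.70, and the 12-member median was -0.43 in place of -0.85.

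The strand that names the cluster did not follow them. MiR-322-5p was at 626, 1045, 507 and 1063 RPM in hyperlipidemic libraries, against 1055, 998, 817 and 470 RPM in normal libraries. The lowest value of all was that of normal replicate 4, the library with most miR-450b-5p (log2 fold -0.05, SE 0.35, limma adjusted p = 0.944). MiR-542-5p, the minor strand of its hairpin, was at 38.5, 58.4, 24.97 and 60.2 RPM in hyperlipidemic libraries, against 56.6, 60.2, 33.3 and 30.2 RPM in normal libraries (log2 fold -0.0043, SE 0.41, limma adjusted p = 0.993). MiR-450b-3p was at 14.35, 21.6, 7.94 and 19.8 RPM in hyperlipidemic libraries, against 17.15, 11.5, 18.2 and 10.9 RPM in normal libraries (log2 fold 0.08, SE 0.44, limma adjusted p = 0.934). In all 3 the groups overlapped, and for miR-542-5p and miR-450b-3p normal replicate 4 was again the lowest normal library.

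The remaining members, apart from miR-351-3p, lay between. MiR-322-3p was at 229.9, 313, 155 and 392 RPM in hyperlipidemic libraries, against 411, 274, 493 and 665 RPM in normal libraries (log2 fold -0.77, SE 0.37, limma adjusted p = 0.301). MiR-503-5p was at 43.45, 142, 54.85 and 90.8 RPM in hyperlipidemic libraries, against 109.8, 90.3, 206 and 85.3 RPM in normal libraries (log2 fold -0.62, SE 0.45, limma adjusted p = 0.441). Both overlapped between the groups. The minor strand miR-503-3p had 4.16 to 9.89 RPM in hyperlipidemic and 6.86 to 26.2 RPM in normal libraries (log2 fold -0.72, SE 0.55). MiR-351-3p had 0 to 2.49 RPM on 23 reads in all in hyperlipidemic libraries and 0.72 to 14.8 RPM on 35 reads in normal libraries (log2 fold -1.42, SE 1.01). Its 0 in hyperlipidemic replicate 3 allows a level of up to 1.13 RPM, the worth of 3 reads, which covers counting error only.

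**Figure D2:**
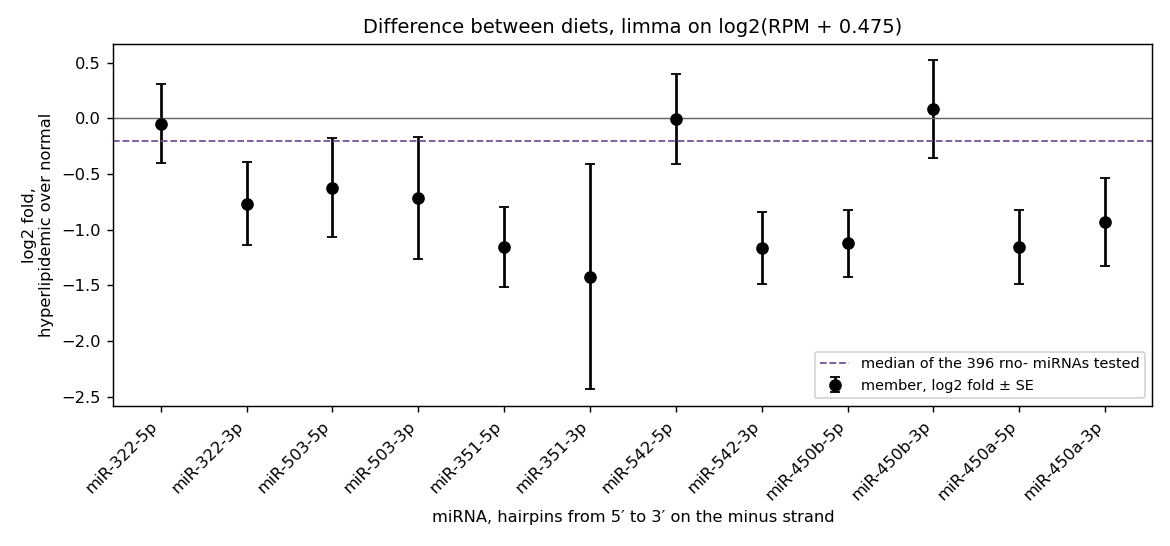
Log2 fold of hyperlipidemic over normal bone for each member (points, limma fit on log2 of RPM plus 0.475, bars ± SE, 4 libraries a group), with the median of the 396 rno- miRNAs tested as a dashed line at -0.20. MiR-322-5p, miR-542-5p and miR-450b-3p lie between -0.05 and 0.08, and the other 9 lie between -0.62 and -1.42.

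The size of these differences depended on the scale. With median-of-ratios factors the median log2 fold of the rno- miRNAs tested was 0.05 in place of -0.20, and the 12-member median was -0.59, with 9 of 12 below 0. With rno- values rescaled without the red-cell markers the medians were -0.03 and -0.67. Under both, miR-322-5p and miR-542-5p turned to log2 folds above 0, and miR-450b-5p stayed at -0.86 and -0.94. The authors' deposited table calls 5 of the 12 members down and none up. The share of all rows that it calls down was not computed. In the authors' deposited table the 5 are miR-450b-5p, miR-542-3p, miR-450a-5p, miR-351-5p and miR-351-3p, with folds of 0.465 to 0.490 and adjusted p-values of 0.292 to 0.625. Those calls did not follow the authors' p-values, which come from an unstated test. MiR-351-3p was called down at a p of 0.318 (fold 0.490). MiR-450a-3p was called unchanged at a p of 0.00735 (fold 0.581). For miR-322-5p the authors' deposited table has a fold of 1.09, on the other side of no change from the fit here, and how that fold was formed is not stated.

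Within the cluster, the make-up of the signal differed between the libraries, which the scale of the class cannot affect. MiR-322-5p made up 21.4%, 23.6%, 20.8% and 20.6% of the cluster's summed RPM in hyperlipidemic libraries, against 17.6%, 18.3%, 10.7% and 5.41% in normal libraries. The hyperlipidemic shares were thus close together and above all normal ones. MiR-450b-5p was the most abundant member in all 8 libraries. MiR-450b-5p held 27.8% ± 2.94 in hyperlipidemic and 31.6% ± 1.04 in normal libraries (SD over n = 4 each), with 24.4% to 30.4% against 30.8% to 33.1%. MiR-450a-5p held 22.0% ± 1.61 in hyperlipidemic against 25.7% ± 2.64 in normal libraries, and miR-542-3p held 9.53% ± 1.05 in hyperlipidemic against 11.2% ± 1.04 in normal libraries. For miR-351-5p it was 7.56% ± 1.78 in hyperlipidemic against 8.79% ± 2.07 in normal libraries, and for miR-322-3p 7.23% ± 0.658 in hyperlipidemic against 6.49% ± 1.10 in normal libraries. The other 6 members were each at most 3.2% in any library.

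**Figure D3:**
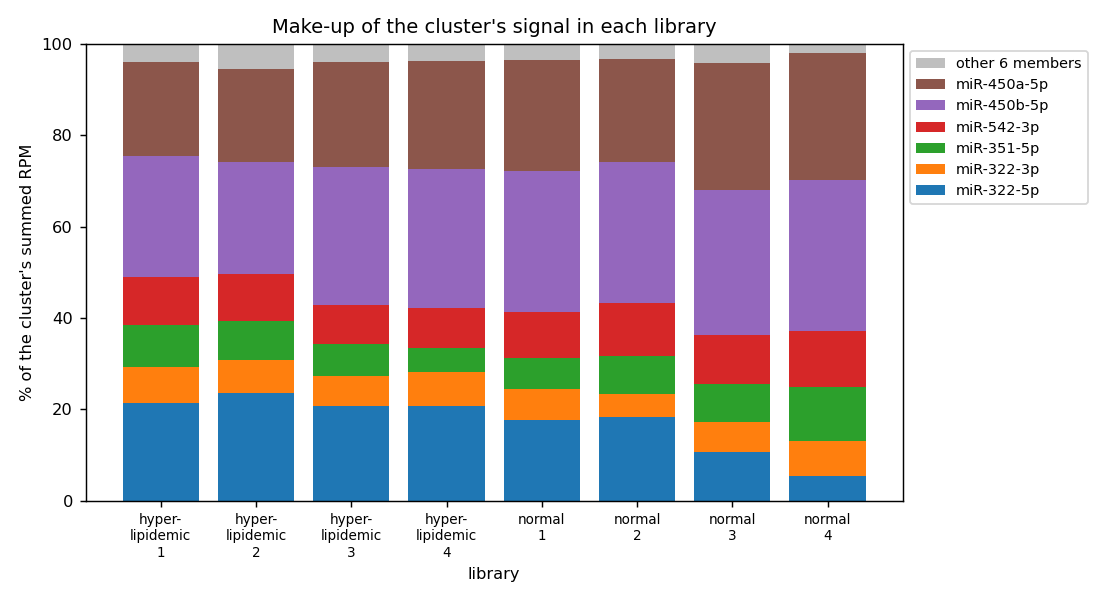
Share of each member in the cluster's summed RPM (y axis, %) in the 4 hyperlipidemic and the 4 normal libraries, with the 6 scarcest members drawn together in grey. The blue segment of miR-322-5p narrows to 10.7% and 5.41% in normal replicates 3 and 4 and is 20.6% or more in every hyperlipidemic library.

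The arms of a hairpin arise from the same precursor, and their ratio within a library, taken with 0.475 RPM added to each arm, does not depend on the scale beyond that addition. The dominant arm was the same in all 8 libraries for 5 of the 6 hairpins: 3p for miR-542 and 5p for miR-503, miR-351, miR-450b and miR-450a. For miR-322 the 5p arm led in 7 libraries, with a log2(5p/3p) of 1.58 ± 0.163 in hyperlipidemic and 0.86 ± 1.02 in normal libraries (SD over n = 4 each). In normal replicate 4 the 3p arm led, at -0.50. Over the 6 hairpins no difference passed after adjustment. At 4 against 4 libraries the smallest exact permutation p is 0.0286, so that at least 4 of the 6 would have to be fully apart for any to pass.

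The ratios of miR-542 and of miR-450b were fully apart between the diets, in opposite directions of 5p to 3p. The share of all rno- hairpins whose ratios were fully apart was not computed. For miR-542 log2(5p/3p) was -2.99, -2.95, -3.03 and -2.89 in hyperlipidemic libraries, against -3.39, -3.39, -4.61 and -5.13 in normal libraries. The hyperlipidemic values lay within a narrow band, and the difference was 1.16 (exact permutation test, two-sided p = 0.0286, adjusted 0.0857). For miR-450b it was 5.71, 5.61, 6.45 and 6.28 in hyperlipidemic libraries, against 6.72, 7.13, 7.02 and 7.98 in normal libraries, a difference of -1.20 (exact permutation test, two-sided p = 0.0286, adjusted 0.0857). In both hairpins the scarcer strand, miR-542-5p or miR-450b-3p, thus had the larger part in hyperlipidemic bone. Without normal replicates 3 and 4 the difference of miR-542 was 0.42 and that of miR-450b -0.92. Normal replicates 1 and 2 still lay beyond all hyperlipidemic libraries for both. The scarcer strands rested on few reads, fewest in normal libraries. MiR-450b-3p had 224 reads in hyperlipidemic and 81 in normal libraries, with 16 to 30 in each normal one. MiR-542-5p had 636 reads in hyperlipidemic and 263 in normal libraries. The ratio of miR-450b also carries the uncertainty of reads shared with miR-450a-5p.

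The other 4 hairpins overlapped. The difference was 0.72 for miR-322 (adjusted exact permutation p = 0.571), 0.26 without normal replicate 4 and -0.03 without normal replicates 3 and 4. It was 0.09 for miR-503, 0.27 for miR-351 and -0.23 for miR-450a (adjusted exact permutation p = 0.83, 0.83 and 0.73). The ratio of miR-351 rests on 0 to 23 reads of its 3p arm in a library.

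**Figure D4:**
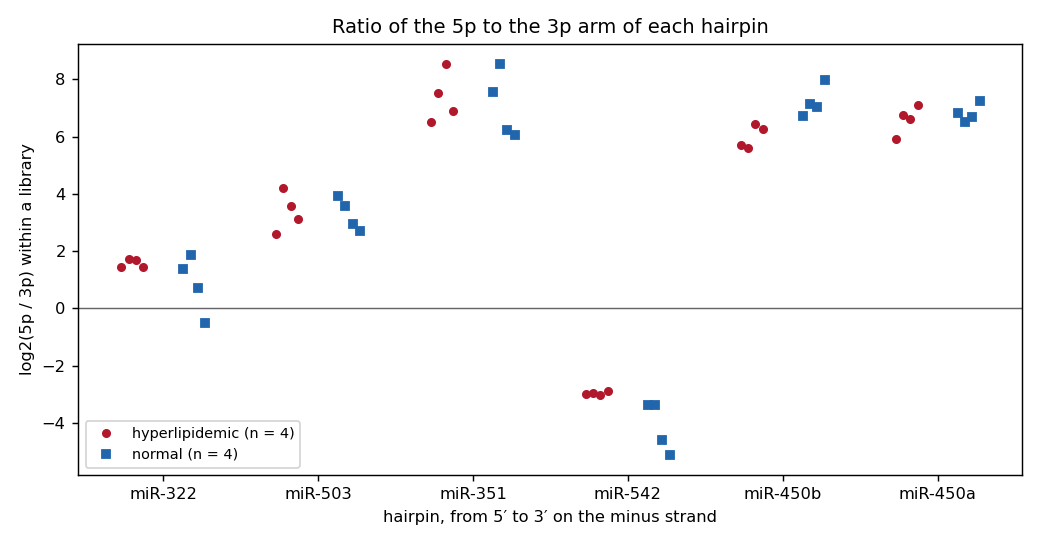
Log2 of the ratio of the 5p to the 3p arm within each library for the 6 hairpins, in 4 hyperlipidemic (red circles, left) and 4 normal (blue squares, right) libraries, from replicate 1 to replicate 4 within a group. For miR-542 the circles lie between -3.03 and -2.89, above the squares, which reach -5.13, and for miR-450b the circles lie below the squares.

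The members did not all vary with miR-322-5p across the libraries, although r was above 0 in 61 of the 66 pairs of members. Of 11 relations with miR-322-5p, 1 passed: miR-542-5p (Pearson's r = 0.92, exact permutation p = 0.00340, adjusted 0.0374; Spearman's rho = 0.86, exact permutation p = 0.0107, adjusted 0.118). Among all 395 other rno- miRNAs tested, miR-542-5p had the highest r with miR-322-5p. MiR-450b-3p had an r of 0.75 (rank 22, adjusted exact permutation p = 0.193) and miR-503-5p of 0.53 (rank 84, adjusted exact permutation p = 0.653). The opposite arm of its own hairpin, miR-322-3p, was at an r of 0.11 with miR-322-5p, rank 232 of 395. The other 7 members lay between -0.19 and 0.14, below the median of 0.23 over all 395. Without normal replicate 4 and hyperlipidemic replicate 3, the 2 libraries farthest from the median of miR-322-5p, r with miR-542-5p was 0.82 (exact permutation p = 0.0569). The relation thus no longer passed without them.

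Another set of members varied with miR-450b-5p. Over all 66 pairs of members, a set computed after the data were seen, 19 passed (adjusted over the 66, exact permutation tests), all with r above 0, and 12 passed by Spearman's rho. The permutations ran over all 8 libraries whatever the diet, so a difference between the diets that 2 members share adds to their r. Whether the pairs hold within the diets was not tested. The lowest r among the 19 was 0.82, and 5.05% of the 78210 pairs of rno- miRNAs tested had an r of that size or more. The median r was 0.64 over the 66 pairs of members, against 0.14 over the 78210. MiR-450b-5p varied with miR-450a-5p (r = 0.99, rho = 1.00, adjusted exact permutation p = 0.00164 for each), which shares its first 20 bases. It also varied with miR-542-3p (r = 0.96, rho = 0.95, adjusted exact permutation p = 0.00491 for r) and with miR-322-3p (r = 0.92, rho = 0.93, adjusted exact permutation p = 0.0123 for r). With miR-351-5p its r was 0.88 (rho = 0.95, adjusted exact permutation p = 0.0231 for r). Without hyperlipidemic replicates 3 and 1, the 2 libraries farthest from the median of miR-450b-5p, these 4 values of r were 0.98, 0.92, 0.83 and 0.79. Of the 11 relations of miR-450b-5p over the 6 libraries left, only that with miR-450a-5p passed (adjusted exact permutation p = 0.0153), so the other 3 no longer passed without them. As deviations from the group means, which leave out the diets, the 4 values of r were 0.99, 0.87, 0.93 and 0.67. For miR-450a-3p, r as deviations was 0.48 with miR-450b-5p in place of 0.85, and 0.54 with miR-450a-5p in place of 0.86. It was 0.60 with miR-351-5p in place of 0.86, and 0.64 with miR-542-3p in place of 0.89. With miR-503-3p it was 0.87 in place of 0.82. Among the 395 other rno- miRNAs miR-450a-5p had rank 1 by r with miR-450b-5p, miR-542-3p rank 4, miR-322-3p rank 11, miR-351-5p rank 28 and miR-450a-3p rank 40, where the median r over all 395 was 0.39. The relation of miR-450b-5p to its own 3p arm was 0.21, and that of miR-542-5p to miR-542-3p 0.15.

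Without normal replicates 3 and 4 the arms of miR-322 and of miR-542 varied together. Between the arms of miR-450a r was then 0.72, of miR-450b 0.44, of miR-503 0.45 and of miR-351 0.50. Over the other 6 libraries miR-322-5p had an r of 0.92 with miR-322-3p, 0.92 with miR-542-3p, 0.91 with miR-450a-5p and 0.98 with miR-542-5p. MiR-542-5p and miR-542-3p then had an r of 0.94. The share of all rno- pairs with such an r over these 6 libraries was not computed. With normal replicate 4 alone left out, r of miR-322-5p with miR-322-3p was 0.75. Normal replicates 3 and 4 had the smallest shares of red-cell and myeloid markers and the largest share of mesenchymal markers (miR-199a, miR-214, miR-143 and miR-145), 7.32% and 7.96% of the rno- signal. That list ran from 2.77% to 6.05% in hyperlipidemic and from 3.79% to 7.96% in normal libraries. All 5 of its members were tested and none passed, with log2 folds from -0.85 to 0.72. The part of cell make-up in these relations was not tested.

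**Figure D5:**
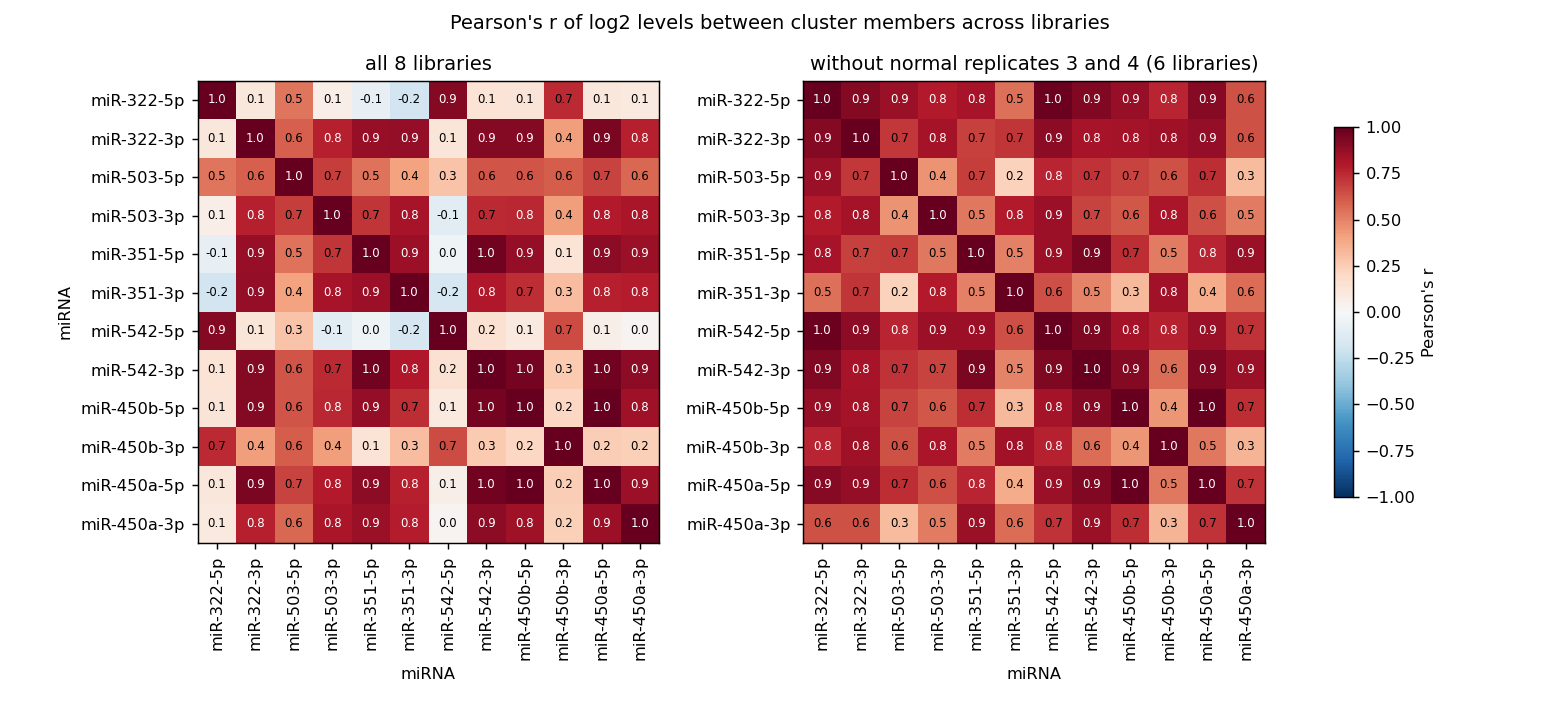
Pearson's r of log2 levels between each pair of the 12 members, across all 8 libraries (left) and across the 6 libraries without normal replicates 3 and 4 (right). On the left the rows of miR-322-5p, miR-542-5p and miR-450b-3p are pale against the other members, and on the right these rows are darker, with miR-322-5p at 0.92 with miR-322-3p.

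Outside the cluster, the 5 rno- miRNAs most like miR-322-5p across the 8 libraries were miR-500-3p (r = 0.90), miR-100-3p (0.88), miR-511-3p (0.86), miR-674-5p (0.83) and miR-130b-3p (0.82). For miR-450b-5p, an anchor added after the values were seen, they were miR-143-5p (r = 0.98), miR-132-5p (0.97), miR-199a-5p (0.95), miR-34c-5p (0.94) and miR-874-3p (0.93). The r values describe 8 libraries whose depth differed by diet. The rno- scale rested on 990804 to 1748974 reads in normal and on 2643501 to 4809893 in hyperlipidemic libraries. Diet and depth cannot be told apart here.

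Relatives of miR-322-5p by seed were not below 0. All 5 members of the miR-15/16 family, which share the seed of miR-322-5p, were tested, none passed and none was below 0, with a median log2 fold of 0.44. The most abundant was miR-16-5p, at 17825 RPM on average in hyperlipidemic and 15442 RPM in normal libraries (log2 fold 0.27, SE 0.30). Next was miR-15a-5p, at 5413 RPM in hyperlipidemic and 4399.6 RPM in normal libraries (log2 fold 0.44, SE 0.41). MiR-322-5p made up 2.22% ± 0.672 of the summed level of these 6 strands in hyperlipidemic and 2.86% ± 0.214 in normal libraries (SD over n = 4 each). MiR-125b-5p (log2 fold -0.03, SE 0.32) and miR-125a-5p (-0.52, SE 0.30), with the seed of miR-351-5p, did not pass. MiR-351-5p made up 2.35% ± 1.02 of their joint level in hyperlipidemic and 4.44% ± 1.21 in normal libraries. Of the cluster of miR-20b and miR-363, also on the X chromosome, 3 of 4 listed strands passed the filter and none passed the test. All 3 were below 0, with miR-363-3p at 199 RPM on average in hyperlipidemic and 535 RPM in normal libraries (log2 fold -1.43, SE 0.38, limma adjusted p = 0.109). The mean of miR-20b-5p was 83.1 RPM in hyperlipidemic and 133 RPM in normal libraries (log2 fold -0.73, SE 0.36).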

How the data were processed

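For 8 libraries adapters were ligated to RNA of bone, bands of 140 to 160 bp were cut out and reads of 50 bp were taken, per the labels' protocols. Rnor_6.0 is the build and bcl2fastq 1.8.4 a tool in the submitters' processing notes. The sources used here do not give the aligner, the miRNA catalogue or the way of counting. In the 1 table that the authors deposited, the signal of each library, called FPKM by them, is in reads per 1000000, scaled separately for rno- and predicted rows, as the values show. The rno- values up to 20 reads were whole multiples of 1 step per library in 100% of cases (tolerance 0.1 read), and reads were recovered from these steps. Its further columns, by the authors, give a fold (ratio) formed in an unstated way, its log2, a p-value and an adjusted p-value from an unstated test.

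From the deposited signal, limma 3.58.1 in R 4.3.3 (eBayes with trend, two-sided, diet alone) was fitted on log2(RPM + 0.475), the pseudocount being the median of the smallest values above 0. Tested were 696 miRNAs (396 rno-, 300 predicted) above 0 in at least 4 libraries and with a mean of at least 2.375 RPM. Benjamini-Hochberg adjustment ran over all of them. Arm ratios and correlations were tested by exact permutation in Python 3.11.15. The scripts were checked on simulated data. Named are all members, the 5 miRNAs most like miR-322-5p, and of each list those past the threshold and the 2 with the highest mean, of which the text names a part. Members and lists were chosen with earlier results of these data known. Sequences come from RefSeq (GRCr8), whose build differs from that of the authors, so no coordinates are given. Intervals and read floors cover counting error only.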

Additional observations from a re-analysis of the deposited data

How the results depend on the processing

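No member passed the limma threshold under any alternative run, and the median of the 12 log2 folds stayed below 0 in all. Of 696 miRNAs 5 were called. The count was 10 with the pseudocount doubled, 12 with it 5 times as large and 0 with a mean of at least 20 pseudocounts. It was 11 with median-of-ratios factors, of which 1 was an rno- miRNA. Those factors were formed on rno- rows and applied to predicted rows too, which have a scale of their own. The count was 3 among rno- miRNAs alone, 0 with voom on recovered reads (added after seeing the data) and 0 to 12 without 1 library.

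Log2 folds that changed sign were 0.21 and 0.14 for miR-322-5p and 0.25 and 0.18 for miR-542-5p, with median-of-ratios factors and without the red-cell markers. Without 1 library they were -0.30 to 0.15 for miR-322-5p, -0.17 to 0.25 for miR-542-5p and -0.094 to 0.37 for miR-450b-3p.

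Arm differences that changed sign were -0.26 for miR-351 and -0.0033 for miR-503 with the pseudocount 5 times as large. Without normal replicates 3 and 4 they were -0.031 for miR-322, -0.69 for miR-351 and -0.37 for miR-503. Without 1 library they were -0.12 to 0.75 for miR-351, -0.40 to 0.00045 for miR-450a and -0.18 to 0.36 for miR-503.

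The single relation with miR-322-5p that passed, miR-542-5p, became 0 of 11 without the 2 farthest libraries and 0 without any 1 library, where r was 0.89 to 0.97. With median-of-ratios factors r with miR-322-5p was -0.43 for miR-322-3p, -0.42 for miR-450a-3p, -0.42 for miR-450a-5p, -0.38 for miR-450b-5p, -0.49 for miR-503-3p and -0.34 for miR-542-3p. Without the red-cell markers it was -0.13, -0.12, -0.14, -0.12, -0.14 and -0.12 for these in the same order. Without normal replicates 3 and 4, where miR-322-3p passed and miR-542-5p did not, it was 0.55 for miR-351-3p and 0.82 for miR-351-5p. Without the 2 farthest libraries it was 0.13 for miR-351-5p, -0.18 for miR-450a-3p and -0.17 for miR-503-3p. Without 1 library r was -0.38 to 0.75 for miR-322-3p, -0.78 to 0.35 for miR-351-3p, -0.56 to 0.59 for miR-351-5p, -0.38 to 0.41 for miR-450a-3p, -0.24 to 0.66 for miR-450a-5p, -0.22 to 0.68 for miR-450b-5p, -0.29 to 0.30 for miR-503-3p and -0.34 to 0.74 for miR-542-3p. The cause of these changes was not tested.

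Same-numbered libraries did not deviate together (r of 0.14, -0.37, -0.32 and -0.01), so these values showed no pairing by number. Whether same-numbered libraries were handled together was not tested. With the replicate block 0 miRNAs were called. The block cannot change a mean arm difference in this balanced layout. The adjusted p of miR-542 and of miR-450b was 0.375 with it (exact sign-flip test over same-numbered libraries). After removal of group and replicate means, which leaves little variation, r of miR-542-5p with miR-322-5p was 0.99. The planned edgeR and DESeq2 tests were not run, since the 2 classes of rows have steps of their own. With 4 libraries a group and as few as 23 reads for miR-351-3p in hyperlipidemic libraries, counting limits the scarce arms.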
